A study of Rattus norvegicus with 11 samples.

Results

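The genes described here are 9 claudin and tight junction genes of the rat, Cldn1, Cldn3, Cldn4, Cldn5, Cldn7, Cldn8, Ocln, Tjp1 and Tjp3, taken by symbol out of the 18507 genes of the expression table. All 9 symbols were found. Tight junctions seal the gap between neighbouring epithelial or endothelial cells. Claudins span the membrane and form the strands that decide which ions and solutes pass between cells, occludin joins these strands, and the zonula occludens proteins encoded by the Tjp genes tie them to the actin cytoskeleton inside the cell. In the bladder, the junctions of the urothelium, together with the uroplakin plaques of its surface cells, keep urine out of the tissue beneath.

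Bladder RNA was sequenced from female Sprague-Dawley rats, less than a year old by the methods, in 4 groups. In partial bladder outlet obstruction (PBOO), a suture was tied around the bladder neck and urethra, and bladders were taken at week 4 (3 samples) or week 5 (2 samples, a further one having been dropped when libraries were made). The normal groups of week 4 (3 samples) and week 5 (3 samples) were controls, which by the methods had an abdominal incision without a tie. The study presents the samples of a group as biological replicates, and the labels name no animals, so p-values measure the spread between these samples. Expression is given as FPKM, read fragments scaled by exon length and by library total, a per-length unit in which the levels of different genes can be compared. Read counts are not part of the table and the depth is unknown. PBOO was compared with normal within each week on the log2(FPKM + 0.1) scale with limma, which understates the change of genes near 0 FPKM, and a gene was called at a Benjamini-Hochberg adjusted p under 0.05 over all genes tested.

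The samples differed in their cell type markers, and this bears on every result below. The 11 urothelial markers summed to 6629 to 8408 FPKM in normal week 4 samples and 4029 to 5010 FPKM in PBOO week 4 samples, while 10 smooth muscle markers summed to 25717 to 27883 FPKM and 51368 to 82648 FPKM. At week 5 the urothelial sum was 7758 to 10197 FPKM in normal and 9645 to 10823 FPKM in PBOO samples, but the smooth muscle sum was 25009 to 29412 FPKM against 997 and 1867 FPKM, and the sum of 8 fibroblast markers was 1550 to 1975 FPKM against 124 and 177 FPKM. Both PBOO week 5 samples thus stand apart from the other 9 in muscle and fibroblast RNA. The sum of 10 leukocyte markers was 45.8 to 102 FPKM in normal and 281 and 774 FPKM in PBOO week 5 samples, and that of 11 endothelial markers was 70.9 to 123.5 FPKM and 124.1 and 190.3 FPKM. Of the urothelial markers, the uroplakins Upk1a, Upk2 and Upk3a measured 321 FPKM or more in each of the 11 samples, Krt13 did not pass 1.02 FPKM in any, and Krt7 was listed at 0 in all week 4 samples. Normal week 4 replicate 1 was low in fibroblast (1127 FPKM) and leukocyte (77.9 FPKM) markers beside the other two of its group (4213 and 378 FPKM or more). In bulk tissue, fewer cells of a type and less RNA per cell cannot be told apart, and the part of cell makeup in the results was not tested. In all, 4871 genes were listed at 0 in every week 4 sample, among them 62 of the 657 genes that averaged at least 100 FPKM at week 5. None of the 9 genes was listed at 0 in any sample.

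Cldn4, a claudin of barrier-forming epithelia, had the highest level of the 9 genes in each of the 4 groups. In normal week 4 bladder it averaged 276.8 ± 52.5 FPKM (SD, n = 3), and its range lay apart from that of the next gene, Tjp1, at 45.7 ± 3.67 FPKM. Tjp1 and Cldn7 (44.9 ± 14.7 FPKM) overlapped, Cldn8 followed at 32.6 ± 2.00 FPKM, apart from both of its neighbours, and Cldn5 (19.4 ± 3.26 FPKM), Ocln (17.9 ± 1.74 FPKM) and Tjp3 (15.3 ± 2.31 FPKM) did not differ beyond their ranges. Cldn1 (2.42 ± 0.753 FPKM) and Cldn3 (0.473 ± 0.297 FPKM) were lowest. In normal week 5 bladder the order was Cldn4, Cldn7, Cldn8, Tjp3, Tjp1, Ocln, Cldn5, Cldn3 and Cldn1, where only Cldn8 and Tjp3, and then each pair of neighbours from Ocln to Cldn1, overlapped. In PBOO week 5 bladder Tjp3 (140 ± 27.9 FPKM, n = 2) stood in the third place, its range overlapping that of Cldn7 (154 ± 21.4 FPKM), and Ocln in the fourth.

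**Figure D1:**
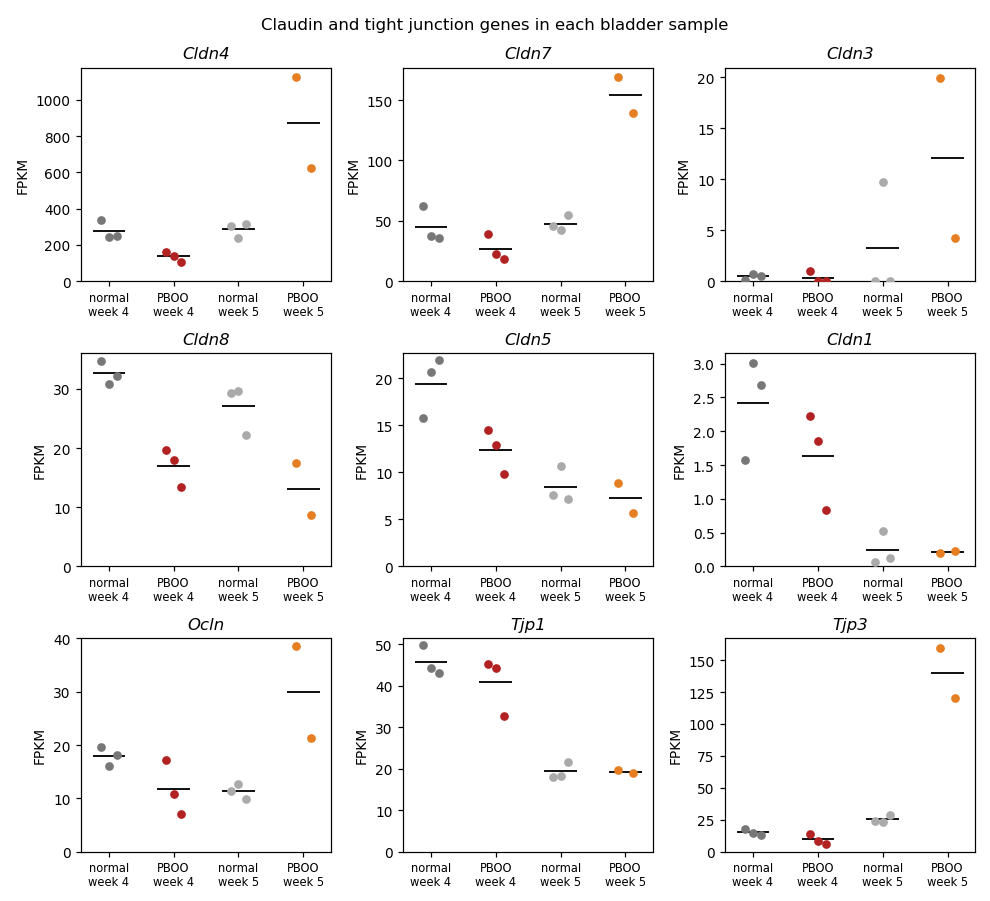
Each panel shows FPKM (vertical axis, from 0) of 1 gene in the 11 bladder samples, with normal and PBOO samples of weeks 4 and 5 along the horizontal axis, points for samples and bars for group means. Cldn4, Cldn7, Ocln and Tjp3 sit above all normal samples in both PBOO week 5 samples, whereas at week 4 the same genes sit lower or overlap.

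At week 4, no member passed the threshold, and all 8 that were tested had lower group values in PBOO bladder. Of these 8, none was called, against 0.512% of the 11320 genes tested (58 genes). At an unadjusted p under 0.05, Cldn4, Cldn5, Cldn7, Cldn8 and Tjp3 were lower and none was higher, where 26.2% of all genes were lower and 5.76% higher. Their median log2 fold change was -0.72, and that of all genes was -0.25. Every PBOO sample lay below every normal sample for 3 of the 8, Cldn4, Cldn5 and Cldn8, as for 34.9% of all genes tested.

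Cldn4 measured 337, 245 and 248 FPKM in normal and 161, 141 and 106 FPKM in PBOO week 4 samples. The groups did not overlap, and the log2 fold change was -1.03 ± 0.19 (SE; limma adjusted p = 0.0538), or -0.77 relative to the median of all genes. Cldn8, a claudin known from tight epithelia such as the collecting duct, measured 34.8, 30.8 and 32.2 FPKM in normal and 19.6, 17.9 and 13.3 FPKM in PBOO samples, again without overlap (-0.96 ± 0.16, adjusted p = 0.0538). Cldn5, the main claudin of endothelial junctions, measured 15.7, 20.7 and 21.9 FPKM against 14.4, 12.9 and 9.85 FPKM (-0.65 ± 0.19, adjusted p = 0.0899). The highest PBOO value of Cldn5 lay just under the lowest normal one, that of the replicate 1 poor in fibroblast and leukocyte markers. Cldn7, an epithelial claudin also found along the lateral membrane, measured 61.9, 37.1 and 35.8 FPKM against 39.1, 22.8 and 18.4 FPKM (-0.77 ± 0.32, adjusted p = 0.152). Here PBOO replicate 1 lay within the normal range. Cldn1, best known from the barrier of the skin, measured 1.57, 3.01 and 2.68 FPKM against 2.22, 1.86 and 0.841 FPKM, with overlapping groups (-0.59 ± 0.42, adjusted p = 0.341). Cldn3 was under 1 FPKM in each of the 6 samples, from 0.158 to 0.748 FPKM in normal and from 0.00572 to 0.996 FPKM in PBOO bladder, and with a mean under the 0.5 FPKM filter it was not tested.

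Occludin and the scaffold genes overlapped between the week 4 groups. Ocln measured 19.6, 16.1 and 18.1 FPKM in normal and 17.1, 10.8 and 7.04 FPKM in PBOO samples (-0.70 ± 0.30, limma adjusted p = 0.161). Tjp3, which encodes ZO-3, the scaffold of this family found mainly in epithelia, measured 17.8, 14.8 and 13.3 FPKM against 14.0, 8.36 and 6.31 FPKM (-0.74 ± 0.29, adjusted p = 0.136). Tjp1, which encodes ZO-1 and is expressed in epithelial, endothelial and other cells, measured 49.8, 44.2 and 43.0 FPKM against 45.3, 44.3 and 32.7 FPKM (-0.18 ± 0.15, 95% interval -0.53 to 0.18, adjusted p = 0.421). PBOO replicate 1 was the highest of its group for all 9 genes. Without it, 6 members were called, all lower (Cldn4, Cldn5, Cldn7, Cldn8, Ocln and Tjp3, with limma adjusted p from 0.0169 for Cldn8 to 0.0485 for Cldn5), but calls among all genes also went from 58 to 2126. Without any other single sample of week 4 no member was called.

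At week 5, Tjp3, Cldn7, Cldn4 and Ocln rose in PBOO bladder, by 5.48-fold, 3.23-fold, 2.96-fold and 2.52-fold, and Cldn8 fell 2.17-fold. Of the 8 members tested, 4 were called higher, against 15.5% of the 13685 genes tested, and 1 was called lower, against 14.5%. The same 4 lay above every normal sample in both PBOO samples, as did 35.3% of all genes, and Cldn8 lay below, as did 25.0%. The median log2 fold change was 1.45 over the 8 members and 0.12 over all genes. Tjp1 and Cldn5 did not pass the test, nor did Cldn3.

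Cldn4 measured 304, 237 and 315 FPKM in normal samples and 1127 and 623 FPKM in PBOO samples, so that the lower PBOO value was still well above the highest normal one (log2 fold change 1.56 ± 0.29, limma adjusted p = 0.0131). Cldn7 measured 45.7, 42.3 and 55.2 FPKM against 169 and 139 FPKM (1.69 ± 0.17, adjusted p = 0.0019). Of the 3 called claudins, Cldn7 had the PBOO samples closest together in relative terms. Cldn8 went the other way, from 29.3, 29.7 and 22.1 FPKM to 17.4 and 8.68 FPKM (-1.12 ± 0.32, adjusted p = 0.0474). Its groups did not overlap, but the call was near the threshold and was lost without normal replicate 1, 2 or 3 or PBOO replicate 2 (adjusted p 0.0828 to 0.142), and the change was -0.62 without PBOO replicate 2. It was also lost without a trend in the variance prior (adjusted p = 0.0712) and without the filter on low values (adjusted p = 0.102).

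The 3 claudins left were not called. Cldn5 measured 7.62, 10.7 and 7.13 FPKM in normal and 8.90 and 5.62 FPKM in PBOO samples, with overlapping groups (-0.23 ± 0.27, 95% interval -0.91 to 0.44, limma adjusted p = 0.548). Cldn3 measured 0.0228, 9.70 and 0.0507 FPKM in normal and 19.9 and 4.23 FPKM in PBOO samples. Normal replicate 2 lay between the PBOO samples, and the fold change had a wide error (4.04 ± 2.04, adjusted p = 0.186). Without that normal sample the Cldn3 value was 6.10 and passed the test (adjusted p = 0.016). Cldn1 was low, from 0.0694 to 0.524 FPKM in normal samples and at 0.200 and 0.229 FPKM in PBOO samples, and was under the filter.

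Ocln measured 11.4, 12.7 and 9.94 FPKM in normal and 38.5 and 21.3 FPKM in PBOO week 5 samples, without overlap (1.33 ± 0.27, limma adjusted p = 0.0177). Tjp3 measured 23.8, 23.0 and 29.0 FPKM against 160 and 120 FPKM, the largest called change of the 9 genes (2.46 ± 0.18, adjusted p = 0.0007). Tjp1 measured 18.0, 18.3 and 21.7 FPKM against 19.6 and 18.9 FPKM. Both PBOO values of Tjp1 lay inside the normal range, and the difference of 0.00 ± 0.13 had a 95% interval of -0.33 to 0.33. Removing 1 sample at a time kept Tjp3 and Cldn7 called in each of the 5 fits, whereas Cldn4 missed the threshold without normal replicate 1 (adjusted p = 0.0508) or 2 (0.0502), and Ocln without normal replicate 1 (0.066) or 3 (0.0657). The number of members called was 2 without normal replicate 1 and 3 without normal replicate 3. Calls among all genes were then 1847 and 2217, against 4095.

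**Figure D2:**
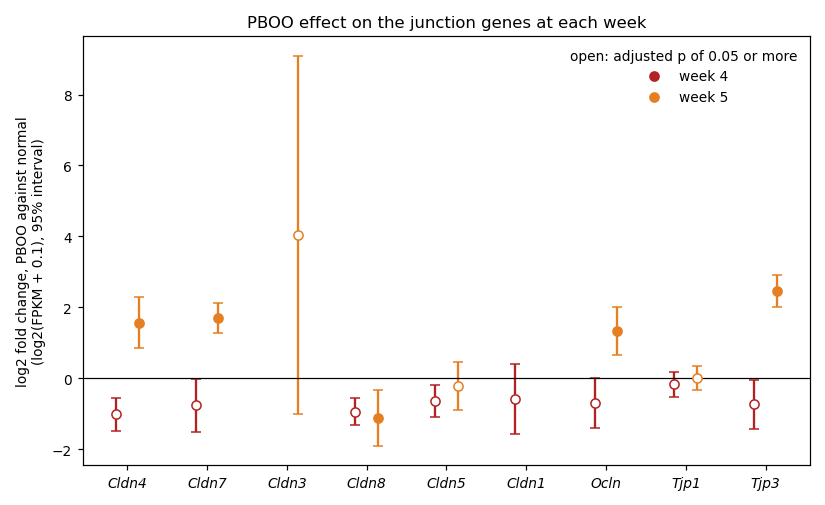
Log2 fold change of PBOO against normal bladder (vertical axis, log2(FPKM + 0.1) scale) for each gene (horizontal axis) at week 4 and week 5, with 95% intervals from limma; open points have an adjusted p of 0.05 or more. Cldn4, Cldn7, Ocln and Tjp3 have negative values at week 4 and called positive ones at week 5, Cldn8 is negative at both weeks, and Cldn3 has the widest interval.

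The effect of PBOO differed between the weeks for 4 members. Tested as an interaction over all 11 samples, the week 5 effect minus the week 4 effect was 3.19 ± 0.38 for Tjp3, 2.59 ± 0.36 for Cldn4, 2.46 ± 0.42 for Cldn7 and 2.04 ± 0.45 for Ocln on the log2 scale (limma adjusted p from 0.0002 to 0.0063). The median difference of all genes was 0.35, and 26.5% of the 11296 genes tested were called with a positive difference. Median-ratio scaling moved the share of positive values among all called genes from 66.2% to 48.1%, and called the same number of members. For Cldn8 the difference was -0.16 ± 0.36, with an interval of -0.97 to 0.64 (adjusted p = 0.746). For Cldn5 it was 0.41 ± 0.35 and for Tjp1 0.18 ± 0.21, neither of which passed. In these differences too, week and any difference in how the samples were prepared cannot be told apart.

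Normal bladder itself differed between the weeks. Cldn1, Cldn5 and Tjp1 were lower at week 5, with log2 differences of -3.08 ± 0.53, -1.19 ± 0.23 and -1.24 ± 0.14, and Tjp3 was higher (0.73 ± 0.26) (limma adjusted p from 5.59e-05 for Tjp1 to 0.0338 for Tjp3). Of the 9 members, 3 were called lower and 1 higher, where 48.0% of all genes were lower and 7.05% higher and the median of all genes was -0.52. After median-ratio scaling 49.0% of the called genes were higher, against 12.8% without it. Cldn4 (0.05 ± 0.24), Cldn7 (0.12 ± 0.28), Cldn8 (-0.28 ± 0.24) and Ocln (-0.65 ± 0.30) were not called. After median-ratio scaling these 4 values were 0.57, 0.64, 0.24 and -0.14, again without a call (limma adjusted p of 0.0755 or more). On that scale Tjp3 was 1.25 (adjusted p = 0.0021), so the size of these differences depended on the scaling. With the FPKM as deposited, the call of Tjp3 was lost without normal week 4 replicate 2 or 3 or any 1 normal week 5 sample (adjusted p 0.0511 to 0.112). Week and any difference in how the samples of the 2 weeks were prepared cannot be told apart. The column labels differ as well, since all those of week 4 and none of week 5 carry the word Input.

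The makeup of the claudin transcripts was compared as shares of the summed FPKM of the 22 claudins in the table, which do not depend on the scaling of a sample. The sum was 422 to 539 FPKM in normal and 190 to 313 FPKM in PBOO week 4 samples, and 413 to 503 FPKM in normal and 862 and 1457 FPKM in PBOO week 5 samples. Cldn4 made up 59.1% ± 3.11 (SD, n = 3) of it in normal and 53.6% ± 2.24 (n = 3) in PBOO week 4 bladder, and 60.9% ± 2.98 in normal and 74.8% ± 3.64 (n = 2) in PBOO week 5 bladder. Cldn7 took 10.2% and 13.9% at week 5, Cldn8 5.87% and 1.10%, and Cldn5 1.86% and 0.631%. None of these 4 shares overlapped between the groups of week 5, and each had an exact two-sided permutation p of 0.1, which is the smallest that 3 against 2 samples allow (adjusted p = 0.15 over the 6 claudins), so the design cannot reach 0.05. At week 4 only the share of Cldn4 reached the smallest exact permutation p of 0.1, adjusted to 0.60. The Cldn7 difference at week 5 was 3.67 percentage points, or 1.42 without PBOO replicate 2 and 5.92 without PBOO replicate 1. With the 6 member claudins as the denominator its groups overlapped, at 11.8% to 13.8% in normal and 12.6% and 17.8% in PBOO samples (exact permutation p = 0.5). Per sample, Cldn4 had 7.99 to 14.2 times the FPKM of Cldn8 in normal week 5 bladder and 64.7 and 71.7 times in PBOO bladder.

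The scaffold genes Tjp3 and Tjp1 were compared within each sample, as a ratio that does not depend on scaling and that was chosen after their values had been seen. At week 4 Tjp3 had 0.309 to 0.357 times the FPKM of Tjp1 in normal samples and 0.309, 0.189 and 0.193 times in PBOO samples. PBOO replicate 1 reached the lower end of the normal range there. At week 5 the ratio was 1.26 to 1.34 in normal samples and 8.13 and 6.36 in PBOO samples, and the groups lay apart. In the GRCr8 annotation the gene of Tjp3 overlaps that of Apba3, and without a stated strand the reads of the shared bases cannot be told apart. Apba3 averaged 29.4 FPKM in normal and 28.1 FPKM in PBOO week 5 bladder, a log2 fold change of -0.07. Ocln overlaps a pseudogene and Tjp1 overlaps non-coding genes there, and the claudin members overlap no annotated gene.

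**Figure D3:**
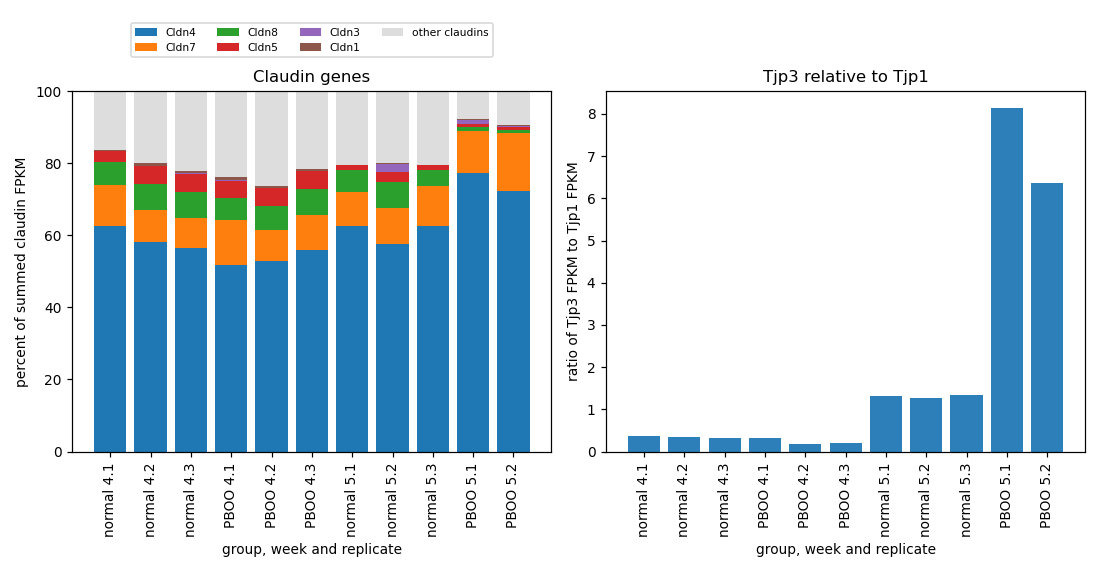
For each of the 11 samples (horizontal axis: group, week and replicate), stacked bars give the percent of summed claudin FPKM taken by each claudin (left), and bars from 0 give the ratio of Tjp3 to Tjp1 FPKM (right). In the 2 PBOO week 5 samples Cldn4 reaches 77.4% and 72.2% of the claudins and the ratio of Tjp3 to Tjp1 is 8.13 and 6.36, above all other samples.

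Because the urothelial markers differed between the groups, the members were also compared after each sample was scaled to its own mean log2 level of the urothelial markers that passed the filter (9 at week 4 and 10 at week 5). At week 4, the changes of Cldn4 (-0.25 ± 0.17), Cldn8 (-0.18 ± 0.17), Cldn7 (0.01 ± 0.26), Ocln (0.08 ± 0.27) and Tjp3 (0.04 ± 0.26) then lay within about 1.5 SE of 0, and Tjp1 was called higher (0.60 ± 0.16, limma adjusted p = 0.023). All genes had a median of 0.53 on that scale and 41.5% of them were called higher. At week 5, Tjp3 (3.10 ± 0.26), Cldn7 (2.33 ± 0.26), Cldn4 (2.20 ± 0.29), Ocln (1.97 ± 0.32) and Cldn3 (4.68 ± 1.39) were called higher, and Cldn8 was not called (-0.48 ± 0.33). Again all genes moved with the scaling, to a median of 0.76, and 84.4% of called genes were higher against 51.7% without it. The urothelial markers did not move as one at week 5. Krt5, a keratin of basal cells, rose by 3.52 and Krt19 by 1.75 on the log2 scale, whereas Krt20, of the surface cells, fell by 6.47, Upk2 by 2.39 and Krt18 by 1.50, and Upk3a (0.03) was not called. Of the 10 markers, 5 lay below every normal sample, Upk1a and Upk1b among them, and 3 lay above. The scaling takes a mean of log2 levels, so Krt20, at 0.940 and 0.383 FPKM in PBOO samples, moved it most. It was not repeated without Krt20, so these week 5 values depend strongly on 1 gene near 0 FPKM.

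A second scaling, chosen after seeing the data, used the epithelial adhesion genes Cdh1 (E-cadherin) and Epcam. Cdh1 measured 247, 194 and 265 FPKM in normal and 393 and 245 FPKM in PBOO week 5 samples, and Epcam 319, 246 and 309 FPKM against 533 and 320 FPKM. On this scale Tjp3 (1.99 ± 0.32), Cldn7 (1.23 ± 0.32) and Cldn4 (1.10 ± 0.35) were called higher at week 5 and Cldn8 lower (-1.58 ± 0.36), with limma adjusted p from 0.0003 to 0.0379. Ocln was not called (0.87 ± 0.36, adjusted p = 0.112). Of all called genes 17.2% were higher on this scale, and the median of all genes was -0.34. As a percentage of the Epcam FPKM of the same sample, Cldn4 was 95.3%, 96.5% and 102% in normal and 211% and 195% in PBOO samples. Tjp3 was 7.46%, 9.37% and 9.38% against 29.9% and 37.6%, and Cldn8 9.17%, 12.1% and 7.15% against 3.27% and 2.72%. For these 3 genes the groups stayed apart, as they did for Cldn7, Ocln and Cldn5, while Cldn1, Cldn3 and Tjp1 overlapped. How many of all genes lie apart relative to Epcam was not computed. On the FPKM scale 35.3% of all genes lay above every normal sample and 25.0% below at week 5. At week 4 Cldn4 was 66.4%, 62.1% and 61.4% of Epcam in normal and 59.0%, 63.9% and 59.2% in PBOO samples, which overlap. As a percentage of Cdh1 it was 166%, 200% and 177% in normal and 122%, 146% and 143% in PBOO samples, which lie apart, so the week 4 picture depended on which of the 2 genes was the reference. Cldn5, scaled to 11 endothelial markers instead, was -0.52 ± 0.20 at week 4 (adjusted p = 0.252) and -1.06 ± 0.52 at week 5 (adjusted p = 0.131).

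**Figure D4:**
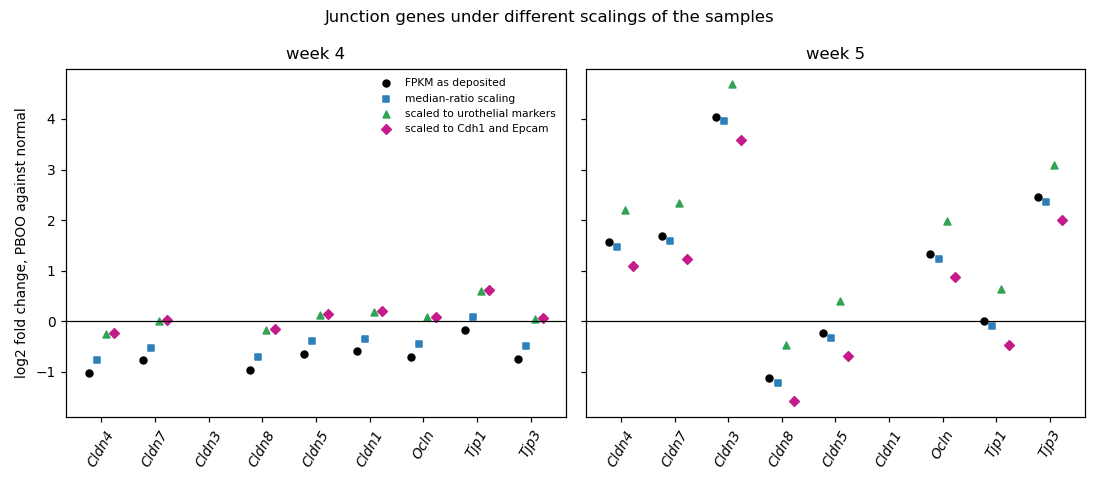
Log2 fold change of PBOO against normal bladder (vertical axis) for each gene (horizontal axis) at week 4 (left) and week 5 (right), with the FPKM as deposited, after median-ratio scaling, and after scaling each sample to urothelial markers or to Cdh1 and Epcam. At week 4 most genes move close to 0 under the epithelial scalings, while at week 5 Tjp3, Cldn7, Cldn4, Ocln and Cldn3 stay above 0 under all 4.

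Promoter sequence was read for the members called at week 5, to show the DNA at annotated starts of the genes that moved together and the one that moved apart. The sequences come from RefSeq (build GRCr8), which held 8 of the 9 members. They span 250 bases before and 50 bases from an annotated start, 5′ to 3′ on the gene's strand. For the claudins this start was the outer end of the annotated gene. In the Cldn8 window an ATG follows almost directly after that start. The annotated gene thus has hardly any bases before this ATG, and the window may not show the Cldn8 promoter. For Ocln, Tjp1 and Tjp3 it lay inside the annotated gene (chr2:33391303-33442207, chr1:128260330-128505018 and chr7:9078757-9097003). The Tjp1 window was chr1:128325311-128325610. These 3 windows thus do not show the DNA before the outer end of the gene. No entry was held for Cldn4. Capitals mark matches, on either strand, to an E-box recognised by Snail and Zeb factors (CAGGTG, or CACCTG on the other strand) or to an ETS core (AGGAAG, or CTTCCT).
Cldn7, chr10:55188420-55188719, plus strand: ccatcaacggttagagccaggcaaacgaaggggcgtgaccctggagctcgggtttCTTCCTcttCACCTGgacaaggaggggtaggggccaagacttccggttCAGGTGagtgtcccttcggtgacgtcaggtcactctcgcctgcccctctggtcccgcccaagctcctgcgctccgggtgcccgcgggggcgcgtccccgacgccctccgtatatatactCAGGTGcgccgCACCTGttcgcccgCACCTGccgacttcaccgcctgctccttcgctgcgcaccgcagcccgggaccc
Ocln, chr2:33441149-33441448, minus strand: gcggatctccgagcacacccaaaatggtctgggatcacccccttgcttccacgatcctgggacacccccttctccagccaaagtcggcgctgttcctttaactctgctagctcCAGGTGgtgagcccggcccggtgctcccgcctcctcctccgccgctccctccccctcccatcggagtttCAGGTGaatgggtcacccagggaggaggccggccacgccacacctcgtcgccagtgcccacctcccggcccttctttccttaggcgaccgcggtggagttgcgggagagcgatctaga
Tjp3, chr7:9084174-9084473, plus strand: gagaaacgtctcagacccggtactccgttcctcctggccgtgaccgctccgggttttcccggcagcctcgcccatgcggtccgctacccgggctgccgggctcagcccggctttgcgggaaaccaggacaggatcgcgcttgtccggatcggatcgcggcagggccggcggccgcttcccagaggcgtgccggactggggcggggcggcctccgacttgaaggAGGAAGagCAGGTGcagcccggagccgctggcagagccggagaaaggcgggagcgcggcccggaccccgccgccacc
Cldn8, chr11:41364281-41364580, minus strand: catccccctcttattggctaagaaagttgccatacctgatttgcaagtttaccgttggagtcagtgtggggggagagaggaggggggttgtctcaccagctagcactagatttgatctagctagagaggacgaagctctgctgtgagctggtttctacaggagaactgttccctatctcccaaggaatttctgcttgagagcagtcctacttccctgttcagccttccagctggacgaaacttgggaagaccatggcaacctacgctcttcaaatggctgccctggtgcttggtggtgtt
The Cldn7 window held 5 E-box matches, at -186, -147, -28, -17 and -3 from the start, and 1 ETS match at -195. At least 1 E-box match was found in 18.7% of 27457 rat promoter windows of the same length, and 5 or more in 3 windows. Ocln held 2 E-box matches, at -137 and -68, and 2.49% of windows held at least 2. Tjp3 held 1 E-box match at -19 and 1 ETS match at -27. An ETS match was present in 34.3% of windows. The Cldn8 window held none of these letters, but with its start next to an ATG it cannot be set against the other windows. Cldn3 had 1 E-box match at -248. Also searched were a grainyhead-like site (AACCNGTT, 1.97% of windows), an AP-1 site (TGANTCA, 7.33%) and a TATA box (TATAAA, 14.3%), and of the 8 members only Tjp1 had a match, to the grainyhead-like letters at -146. These matches describe the letters only, and nothing in the data measures binding.

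Other junction genes gave a setting for the 9 members. At week 4 none of 72 tested genes in 7 lists (other claudins, further junction membrane proteins, junction scaffolds, adherens junction, desmosome, epithelial regulators and repressors) was called by limma, with 4 higher and 26 lower at an unadjusted p under 0.05 (5.56% and 36.1%, beside 5.76% and 26.2% of all genes) and a median log2 fold change of -0.49, beside -0.25 for all genes. The lists had 95 symbols in all, of which 6 claudins were not in the table. At the same week Epcam (-0.97 ± 0.18), the protease Prss8 (-0.94 ± 0.18) and the junction protein Igsf5 (-0.76 ± 0.13) were low, and Esam, an endothelial adhesion molecule (0.64 ± 0.12), and Nectin3 (1.01 ± 0.26) were high, each with an adjusted p of at least 0.0538. At week 5, 21 of 77 tested genes rose (27.3%, beside 15.5% of all genes) and 11 fell (14.3%, beside 14.5%), with a median of 0.21 beside 0.12 for all genes. The same 2 shares of all genes stand behind the counts of the single lists, which hold 5 to 21 tested genes each. A minimum of a 2-fold change left 18 of these 32.

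Among the 12 further junction membrane genes tested at week 5, 4 rose and 3 fell. F11r, which encodes the junctional adhesion molecule JAM-A, measured 86.2, 78.9 and 97.7 FPKM in normal and 267 and 178 FPKM in PBOO samples (1.32 ± 0.21). The adhesion receptor Cxadr (1.25 ± 0.21), the polarity protein Crb3 (0.80 ± 0.14) and the tricellular junction protein Lsr (0.68 ± 0.19) rose as well. Clmp (-2.41 ± 0.16), Jam3 (-1.58 ± 0.24) and Esam (-0.95 ± 0.19) fell. The last 3 are adhesion molecules that are not limited to epithelia, and both PBOO samples were low in muscle and fibroblast markers. The 11 endothelial markers had a median of 0.82 in the same comparison, 1 of them called higher and none lower, opposite in sign to Esam. The part of cell makeup in these values was not tested. Of 21 scaffold genes, 3 rose, cingulin (Cgn, 0.70 ± 0.13), Tjap1 (0.48 ± 0.13) and Ybx3 (0.37 ± 0.11), and the angiomotin-like genes Amotl2 (-1.34 ± 0.34) and Amotl1 (-1.09 ± 0.25) fell. The rises of Lsr, Tjap1 and Ybx3 were not called after median-ratio scaling. Cgn and Amotl1 were listed at 0 in every week 4 sample and could not be tested there.

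Cldn23 was the second most abundant claudin in normal week 5 bladder, at 81.5, 68.2 and 88.6 FPKM, against 105 and 73.3 FPKM in PBOO samples, with overlapping groups (0.15 ± 0.20). Of 5 other claudins tested at week 5, Cldn11, the claudin of myelin and of Sertoli cells, fell from 6.51, 2.78 and 4.11 FPKM to 0.395 and 0.238 FPKM (-3.40 ± 0.42), and Cldn22 fell from 1.62, 1.33 and 1.68 FPKM to 0.0856 and 0.113 FPKM (-3.04 ± 0.36). None of the 5 was called higher. Cldn15 measured 0.860, 1.16 and 0.953 FPKM in normal and 1.73 and 2.01 FPKM in PBOO samples, without overlap (0.86 ± 0.27, limma adjusted p = 0.0624), and it was called higher with quantile normalization (adjusted p = 0.0411). At the adherens junction, 1 of 10 genes rose, Nectin2 (0.59 ± 0.16), and 1 fell, Nectin3 (-2.70 ± 0.21). Of 10 desmosome genes 5 rose, the plakophilins Pkp3 (1.79 ± 0.15), Pkp2 (0.95 ± 0.25) and Pkp1 (0.86 ± 0.19), Perp (1.01 ± 0.14) and desmoplakin (Dsp, 0.84 ± 0.11), and none fell. Nectin2 and Pkp2 were not called after median-ratio scaling. Dsp was listed at 0 in every week 4 sample and could not be tested there.

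Transcription factors and proteases known to act on epithelial junctions were read next to them. Of 13 such genes, 8 rose at week 5 and none was called lower, with a median of 0.88. Elf3, an epithelial ETS factor, measured 111, 122 and 117 FPKM in normal and 607 and 392 FPKM in PBOO samples (2.07 ± 0.21). Ovol2 (1.55 ± 0.23), Ovol1 (1.51 ± 0.43), the ETS factor Ehf (1.05 ± 0.11) and the membrane protease St14, also called matriptase (0.996 ± 0.165), followed, and Ovol1 was not called after median-ratio scaling. Grhl3, a grainyhead-like factor, went the other way, from 131, 89.2 and 177 FPKM to 80.8 and 44.3 FPKM without overlap (-1.09 ± 0.37, limma adjusted p = 0.0769), and it was called lower with the replicate block (adjusted p = 0.0465). Of 6 factors known to repress junction genes, 3 fell, Twist1 (-3.94 ± 0.53), Zeb1 (-2.39 ± 0.28) and Twist2 (-1.37 ± 0.31). Zeb1 measured 10.5, 12.6 and 10.8 FPKM in normal and 1.52 and 2.80 FPKM in PBOO samples. These factors are expressed in mesenchymal cells, and 7 of 8 fibroblast and 10 of 10 smooth muscle markers also fell in the same samples. The part of cell makeup in the fall of these factors was not tested. The Snail genes overlapped between the groups of week 5. Snai1 measured 4.83, 5.15 and 8.37 FPKM in normal and 4.92 and 6.77 FPKM in PBOO samples. Snai2 measured 10.1, 13.1 and 9.74 FPKM against 10.8 and 8.65 FPKM. Zeb2 lay below every normal sample but was not called.

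**Figure D5:**
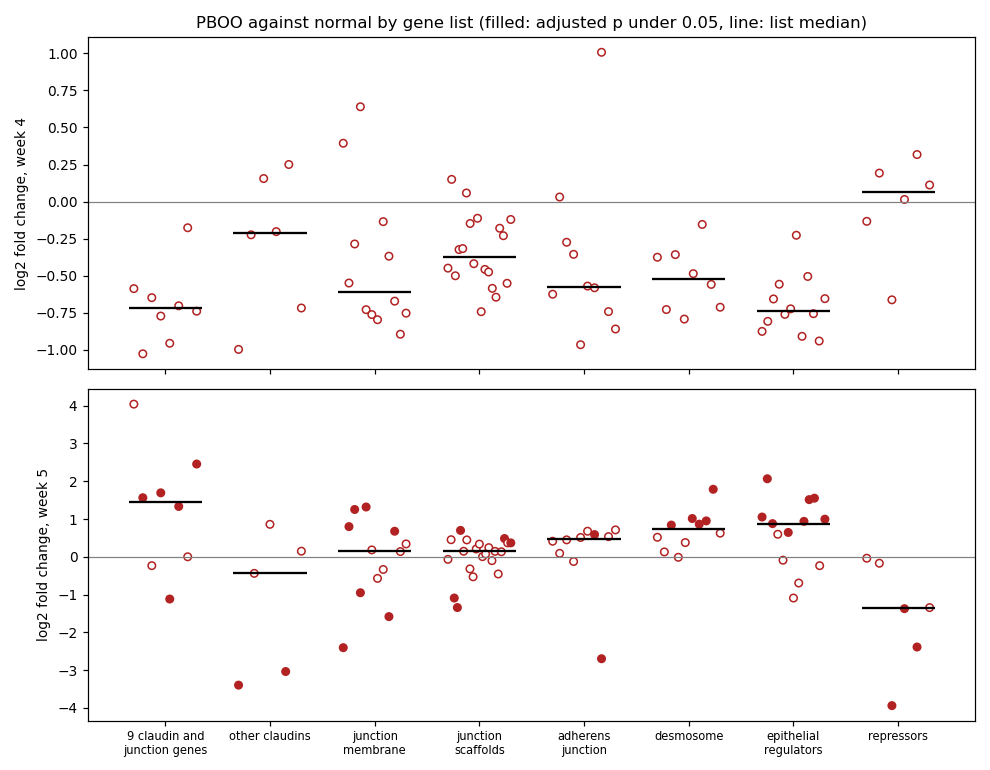
Log2 fold change of PBOO against normal bladder (vertical axis) of the 9 claudin and junction genes and of 7 further lists (horizontal axis) at week 4 (top) and week 5 (bottom), with a point for each gene, filled where limma gave an adjusted p under 0.05, and a line at the list median. No point is filled at week 4, and at week 5 the desmosome and epithelial regulator lists hold filled points above 0 only and the repressors below 0 only.

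Across samples, 4 of the members varied together. After each week's mean was taken out, Pearson's r over the 11 samples was 0.97 between Cldn7 and Tjp3, 0.95 between Cldn4 and Cldn7, 0.93 between Cldn4 and Tjp3 and 0.92 between Ocln and Cldn4, a description in which the 2 PBOO week 5 samples weigh most. Cldn8 was close to 0 with Cldn4 (-0.01) and Ocln (0.02), and had its highest value with Cldn5 (0.79). Of 9970 genes searched, those most like Cldn7 were Itgb4, the integrin of the hemidesmosome, Mapk13 and Sema3f (r of 0.99 each). Those most like Tjp3 were Sh2d4a, Meaf6 and Ccdc97 (0.99), those most like Ocln were Cx3cl1 (0.99), Tor4a and Acss1 (0.98), and those most like Cldn4 were Ppt2, Traf4 and F11r (0.98). Cldn8 was most like Fbxo25, Ankmy2 (0.99) and Galm (0.97), Cldn5 like Actr8, Ppp2r5c and Ccdc47 (0.95), Tjp1 like Tsc2, Wiz and Lzts2 (0.92), Cldn3 like Xpnpep3, Mterf3 (0.93) and Lmo2 (0.90), and Cldn1 like Acvr2a, Lars and Ifih1 (0.91). The difference between PBOO and normal stayed in these values, so the r values in part restate the effects above. All 11 points share the libraries of the comparisons above. How many of all genes reach such r values was not counted.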

How the data were processed

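Bladder RNA of 11 samples was analysed from 1 deposited table of FPKM. The authors sequenced TruSeq libraries (paired ends), trimmed the reads with SeqPrep and Sickle, aligned them with HISAT2, assembled with StringTie and took FPKM from featureCounts. The submitters' processing notes name the mouse build mm10 for these rat samples, and the annotation and strand are not given in the sources used here. Low values did not fall on whole reads, so depth is unknown and no count test (the authors used DESeq2) was run. Columns were mapped to groups by the labels, which name the normal week 5 columns as adult. All column labels of the earlier week carry the word Input, and no week 5 label does. The labels do not say what Input refers to, so the libraries of the weeks may differ in kind, which was not tested.

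Genes averaging at least 0.5 FPKM were tested on log2(FPKM + 0.1) with limma 3.58.1 in R 4.3.3 (lmFit, eBayes with trend, two-sided), each week apart, after a run on simulated data. Interaction and normal-by-week contrasts used all 11 samples and genes above 0 in both weeks. Shares were tested by exact permutation (scipy 1.17.1). The members and lists were chosen with earlier results of these data known. Named list genes are up to 5 per direction with the largest called change, or, where none was called, up to 2 with the smallest p; other genes named with values (Cldn23, Krt and Upk markers, Apba3, Cdh1) were chosen after their values were seen. Alternatives covered scaling, pseudocount, filter, variance prior, a replicate block, a joint fit, thresholds and leaving out each sample.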

Additional observations from a re-analysis of the deposited data

Results flagged for a closer look

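The effect of PBOO at week 5 differed from that at week 4 for 4 members, as tested by the interaction of obstruction and week in limma. The differences were 2.59 for Cldn4 (adjusted p = 0.0005), 2.46 for Cldn7 (0.0017), 2.04 for Ocln (0.0063) and 3.19 for Tjp3 (0.0002) on the log2 scale. For these 4 genes every fit without 1 sample gave an adjusted p of at most 0.0234. Week and any difference in how the samples were prepared cannot be told apart in this test. Groups of 2 or 3 samples are too small for a test of single outlying samples.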

How the results depend on the processing

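The call of no member at week 4 was not firm. 1 member was called with quantile normalization (Cldn8), with the replicate block (Cldn4) and after urothelial scaling (Tjp1). Calls among the 11320 genes tested were then 120, 63 and 4716, against 58 in the main fit. A joint fit of all 11 samples called 1 member (Cldn4) and 822 of 13654 genes. 5 members had an unadjusted p under 0.05, and leaving out 1 sample gave 0 to 6 calls. At week 5 the count was 5. It was 2 without normal replicate 1 and 3 without normal replicate 3, where 1847 and 2217 genes were called, against 4095. Scaled to Cdh1 and Epcam, chosen after seeing the data, 0 members were called at week 4 against 1 with urothelial markers. For the other junction genes, quantile normalization gave 1 call, the replicate block 1 and an unadjusted p 30 at week 4, and a 2-fold minimum gave 18 at week 5. With the 6 claudins as the denominator, the share of Cldn4 at week 5 changed by 5.40 and that of Cldn8 by -6.16 percentage points, against 13.9 and -4.77.

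Signs changed mostly near 0. At week 4, urothelial scaling gave Cldn1 0.19, Cldn5 0.13, Cldn7 0.0066, Ocln 0.076, Tjp1 0.60 and Tjp3 0.039, and scaling to Cdh1 and Epcam gave them 0.21, 0.15, 0.023, 0.092, 0.62 and 0.056. Tjp1 was 0.075 with median-ratio scaling and 0.0011 with quantile normalization. At week 5, Cldn5 was 0.41 after urothelial scaling, and Tjp1 was -0.10 (median-ratio), -0.066 (quantile) and -0.46 (Cdh1 and Epcam). For the difference between weeks, Tjp1 was -0.11 and -0.059 with these first 2. In normal bladder, Cldn4 was -0.063 after urothelial scaling and Cldn8 0.24 (median-ratio) and 0.059 (quantile). Snai1 at week 4 was 0.12 and 0.090 with the same 2, and Evpl at week 5 was 0.080 with the replicate block. Leaving out 1 sample gave ranges across 0 for Cldn5 (-0.56 to 0.092) and Tjp1 (-0.047 to 0.085) at week 5, the Cldn8 difference between weeks (-0.66 to 0.34), and in normal bladder Cldn3 (-1.91 to 1.25), Cldn4 (-0.028 to 0.20) and Cldn7 (-0.015 to 0.38). The causes were not tested.

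Whether the replicate numbers pair the samples was not settled. At week 4 the correlations of same-numbered deviations were 0.15, -0.02 and 0.23, and those of different-numbered ones ran from -0.21 to 0.094. With 3 samples in a group these values cannot decide it. With the block, the 5 members called at week 5 did not change in number, and 7 other junction genes named above were no longer called (Cgn, Esam, Lsr, Nectin2, Pkp2, Tjap1 and Ybx3). Each group has 2 or 3 samples and the read depth is unknown, which limits the precision.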
